A study of Mus musculus with 4 samples.

Results

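Genes that carry a cell through mitosis were examined in the gastric corpus mucosa of mice lacking Muc6, which encodes a mucin secreted by gland cells of the stomach, and of wild-type mice. The group held 35 genes of the G2/M transition, the spindle, the kinetochore and cytokinesis, taken as a given list and matched by Ensembl identifier without version. All 35 were found in the deposited table of 34866 genes, and all 35 were among the 14067 genes that passed the filter on low counts. The 2 groups were Muc6 +/+ (wild type 1 and 2) and Muc6 -/- (knockout 1 and 2), so that each genotype had 2 libraries of polyadenylated RNA. The design text describes the knockout mice as newly generated. The labels name no strain, age, sex or form of the Muc6 allele and do not say whether each library is 1 animal, so p-values measure the spread between these libraries, which may be technical.

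The libraries held 20327745 to 27946423 counts. Muc6 was counted 8542 and 6000 times in the wild-type libraries, and 0 and 10 times in knockout 1 and 2, which follows the labels. Y-linked genes summed to 136 and 121 CPM (counts scaled to library size) in wild type 1 and 2 but to only 1.43 and 2.44 CPM in knockout 1 and 2, so genotype and the presence of Y-linked transcripts cannot be told apart for any gene below. Markers of acid-secreting parietal cells, which define corpus mucosa, were present (15957 and 15562 CPM over 8 markers) in wild type and far lower (661 and 5047 CPM) in knockout.

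Mitosis is driven by cyclin-dependent kinase 1 bound to cyclins A and B. Polo and Aurora kinases build the spindle, kinetochores attach chromosomes to it, and a checkpoint holds the anaphase-promoting complex (APC/C) inactive until every kinetochore is attached. The transcripts of these proteins peak in G2 and mitosis, under the DREAM and MuvB complexes, B-MYB and FOXM1. In the corpus the dividing cells lie in the isthmus of the gland, between the surface pit cells and the neck, and Stmn1, Iqgap3 and Mki67 are among the transcripts used to mark them. In bulk RNA, more dividing cells and more transcript per dividing cell cannot be told apart.

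Every one of the 35 genes was higher in both knockout libraries than in both wild-type libraries. In CPM, scaled by TMM factors, the 35 genes summed to 682 (wild type 1), 501 (wild type 2), 1255 (knockout 1) and 1127 (knockout 2). The mean was 591 ± 128 CPM against 1191 ± 90.4 CPM (SD, n = 2 per group), a ratio of 2.01. The median log2 fold change of the 35 genes was 1.12, from 0.36 for Plk1 to 1.63 for Bub1, while the median over all genes tested was -0.0017 with quartiles of -0.35 and 0.31. Of all genes tested, 26.3% were likewise higher without overlap between the groups, and 8.14% were more than 2-fold higher in mean CPM, as were 25 of the 35.

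No single gene of the 35 passed the test across all genes. With edgeR's quasi-likelihood test and Benjamini-Hochberg adjustment the count was 0 of 35, against 0% of all genes tested, and adjusted p-values ran from 0.180 to 0.413. At an unadjusted p under 0.05 the same edgeR test held 34 of 35 as higher, against 9.22% of all genes tested, and the exception was Plk1. DESeq2 called 23 of 35 as higher at an adjusted p under 0.05, against 4.06% of all genes tested, and limma voom called 0. The words higher and lower below describe the values and not a call by edgeR. Library values joined by "against" are wild type 1 and 2, then knockout 1 and 2, and a log2 change is the fitted log2 fold change of knockout over wild type ± its standard error (SE, n = 2 libraries per genotype).

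**Figure D1:**
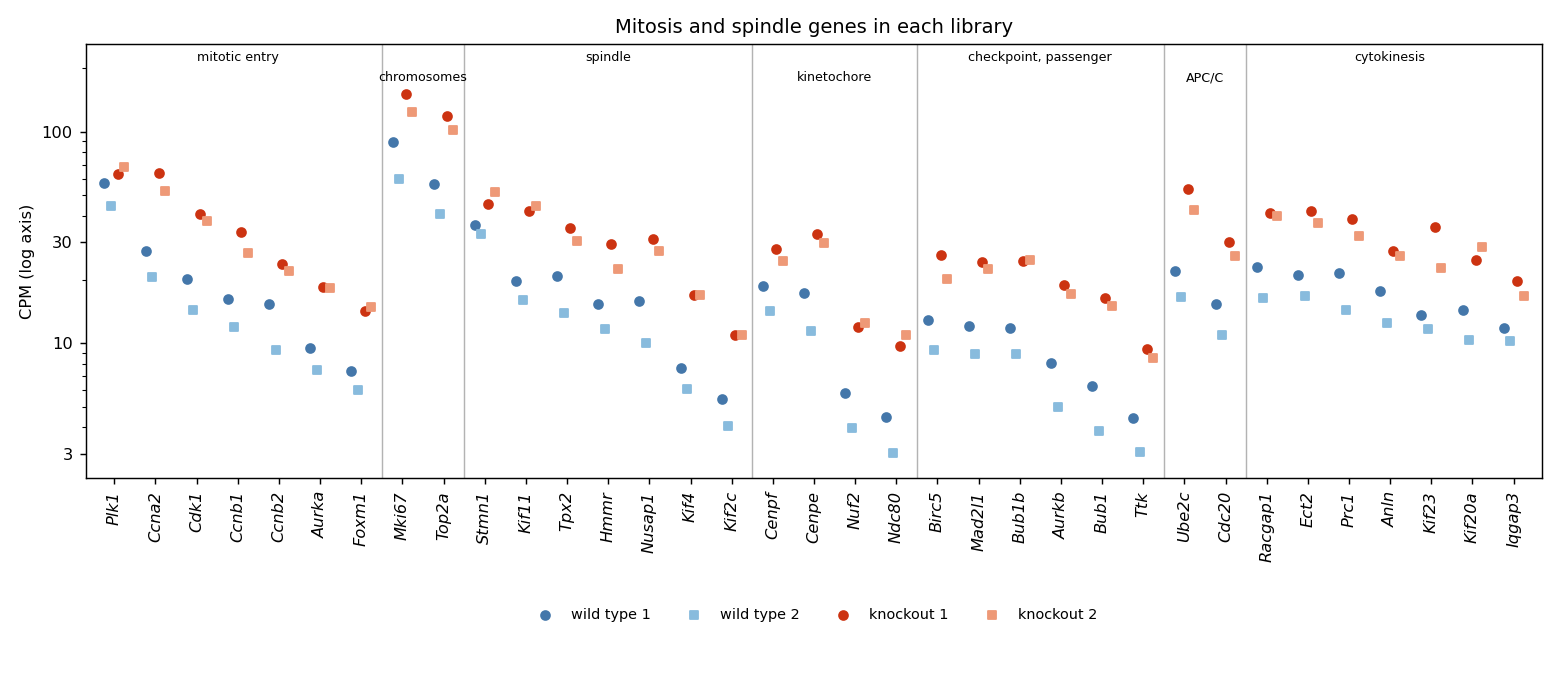
CPM (log axis) of each of the 35 mitosis and spindle genes in the 4 libraries, grouped by role and ordered by mean wild-type level within a role. Blue marks are wild type and red marks knockout, circles are library 1 and squares library 2 of each genotype. Both red marks lie above both blue marks for all 35 genes, with the narrowest gap at Plk1.

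The promoters of these genes were read from RefSeq (GRCm38.p6, 250 bases before to 50 after the start), and 29 of the 35 genes had an entry, with 31 windows in all. The letters searched, on both strands, were TTTGAA or TTTAAA, the cell cycle genes homology region (CHR) that MuvB complexes bind, and CCAAT, the box bound by NF-Y. A CHR match stood in 27 of 31 windows (87.1%), against 27.6% of all 32851 promoters, 19.8% of 13744 promoters of genes tested and 27.3% of 33 promoters of DNA replication and G1/S genes. CCAAT stood in 74.2% of the windows, against 37.4% of all promoters. It stood in 51.6% of promoters of the other mitosis lists and in 54.5% of those of DNA replication and G1/S genes. Both motifs stood in 71.0% of the windows, against 10.7% of all promoters, 25.2% for the other mitosis lists and 18.2% for the replication list. No CHR match overlapped a CCAAT match or another CHR match in the 31 windows, and CCAAT matches on opposite strands overlapped in 1 window, that of Ube2c, outside the stretch printed. In 24 of 31 windows (77.4%) a CHR match lay in the last 50 bases before the start or after it, as it did in 8.68% of all promoters; this distance was chosen after the positions were seen. Mad2l1, Nuf2, Nusap1 and Bub1 had no CHR match in the window, and their log2 fold changes were 1.16, 1.31, 1.18 and 1.63. Plk1, with the smallest fold change, had 3 matches. A match is a description of letters and not a binding site.

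The stretches that follow are the 120 bases just before the start, 5′ to 3′ on the gene's strand, for the 7 genes with 1 RefSeq window that hold a CHR and a CCAAT match wholly within that stretch; matches are in capitals, and ATTGG and TTCAAA are the reverse complements of CCAAT and TTTGAA. They run from the cyclin and kinase that start mitosis to the proteins that end it, and the last base printed is the base before the start. The cyclin B1 stretch lies on the minus strand at chr13:100786487-100786606, Cdk1 on the minus strand at chr10:69352913-69353032, Plk1 on the plus strand at chr7:122159315-122159434 and Top2a on the minus strand at chr11:99024190-99024309. Kif11 lies on the plus strand at chr19:37376262-37376381, Cdc20 on the minus strand at chr4:118437344-118437463 and Ube2c on the plus strand at chr2:164769809-164769928.
Ccnb1: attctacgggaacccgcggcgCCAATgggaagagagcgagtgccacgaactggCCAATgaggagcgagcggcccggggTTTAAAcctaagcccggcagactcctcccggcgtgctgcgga
Cdk1: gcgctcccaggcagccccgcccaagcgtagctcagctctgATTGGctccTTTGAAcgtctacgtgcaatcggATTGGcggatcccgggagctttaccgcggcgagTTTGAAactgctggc
Plk1: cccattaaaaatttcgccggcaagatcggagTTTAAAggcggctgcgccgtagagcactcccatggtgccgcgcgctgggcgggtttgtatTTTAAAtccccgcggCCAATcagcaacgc
Top2a: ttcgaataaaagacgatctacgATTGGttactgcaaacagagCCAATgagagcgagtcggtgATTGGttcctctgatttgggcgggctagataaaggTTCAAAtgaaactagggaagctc
Kif11: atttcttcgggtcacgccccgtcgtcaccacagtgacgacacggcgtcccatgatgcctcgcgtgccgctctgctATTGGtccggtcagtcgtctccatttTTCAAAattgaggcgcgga
Cdc20: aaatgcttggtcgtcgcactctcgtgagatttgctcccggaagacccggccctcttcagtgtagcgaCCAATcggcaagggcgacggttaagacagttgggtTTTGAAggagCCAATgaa
Ube2c: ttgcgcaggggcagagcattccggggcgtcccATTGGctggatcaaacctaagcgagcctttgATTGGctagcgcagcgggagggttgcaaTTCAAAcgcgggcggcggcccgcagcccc

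**Figure D2:**
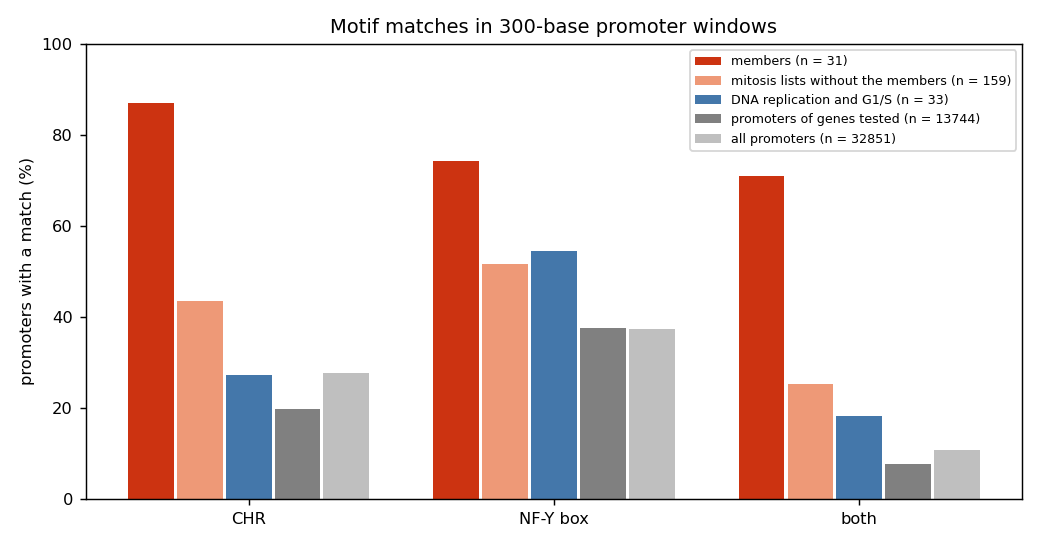
Percentage of 300-base promoter windows with a CHR match, a CCAAT (NF-Y box) match or both. The sets are the 29 of the 35 genes with an entry (31 windows), the other mitosis lists, DNA replication and G1/S genes, genes tested and all promoters. The CHR bar of the 29 genes stands at 87.1%, and that of the other mitosis lists at 43.4%.

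Among the genes that start mitosis, the S and G2 cyclin Ccna2 had the largest fold change. It had 27.4 and 20.7 CPM against 64.0 and 52.4 CPM, from 678 and 397 against 1427 and 1270 counts (log2 change 1.28 ± 0.21). Cdk1, the kinase it activates, had 20.1 and 14.3 CPM against 41.1 and 37.8 CPM (1.19 ± 0.21). Ccnb1, the main mitotic cyclin, had 16.1 and 11.9 CPM against 33.8 and 26.8 CPM (1.11 ± 0.23). Ccnb2, a second B-type cyclin associated with the Golgi, had 15.3 and 9.27 CPM against 23.8 and 22.0 CPM (0.90 ± 0.29). The Ccnb2 values in wild type lay further apart than those in knockout. Aurka, the centrosomal Aurora kinase, had 9.48 and 7.45 CPM against 18.5 and 18.3 CPM, and Foxm1, the transcription factor that induces G2 genes, had 7.38 and 6.04 CPM against 14.3 and 14.9 CPM.

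Plk1, the polo kinase of centrosomes, kinetochores and the midbody, differed least. It had 57.1 and 44.6 CPM against 62.9 and 67.8 CPM (log2 change 0.36 ± 0.18, edgeR adjusted p = 0.413). Knockout 1 exceeded wild type 1 by only 0.14 on the log2 scale, the narrowest gap between groups of the 35. Plk1 made up 8.38% and 8.91% against 5.01% and 6.02% of the summed CPM of the 35 genes.

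Of the chromosome proteins, Mki67 had the most counts of the 35 in every library. Mki67, which coats mitotic chromosomes and marks cycling cells, had 2221 and 1152 counts against 3380 and 2995, or 89.6 and 60.0 CPM against 152 and 124 CPM. Top2a, the topoisomerase that untangles sister chromatids, had 56.4 and 40.9 CPM against 119 and 101 CPM (log2 change 1.18 ± 0.22). The fold change of Mki67 was 0.88 ± 0.27, and the difference between the pair was not tested.

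Spindle motors and microtubule proteins had log2 fold changes from 0.49 to 1.29. Kif11, the kinesin that pushes the poles apart, had 19.8 and 16.1 CPM against 42.3 and 44.8 CPM (log2 change 1.28 ± 0.16), with an edgeR adjusted p of 0.180, the lowest of the 35, and a DESeq2 adjusted p of 3.0e-05. Kif4, a chromosome-bound kinesin gene on the X chromosome, had 7.67 and 6.09 CPM against 16.9 and 16.9 CPM (1.29 ± 0.19). Kif2c, a kinesin that takes microtubules apart at kinetochores, had 5.45 and 4.06 CPM against 10.9 and 10.9 CPM. Nusap1, Hmmr and Tpx2, which bundle and nucleate spindle microtubules, had log2 fold changes of 1.18, 0.94 and 0.92. Stmn1, a microtubule-destabilising protein that also marks isthmus progenitors, had 36.2 and 32.9 CPM against 45.5 and 51.7 CPM (0.49 ± 0.14). Its share of the summed CPM was 5.31% and 6.57% against 3.62% and 4.59%.

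At the kinetochore, both members from the NDC80 complex, which grips the microtubule, had fold changes above the median of the 35. Ndc80 had 4.48 and 3.02 CPM against 9.68 and 11.0 CPM (log2 change 1.46 ± 0.30), from 111 and 58 against 216 and 266 counts. Nuf2, its partner, had 5.85 and 3.96 CPM against 11.9 and 12.4 CPM (1.31 ± 0.27). Cenpe, a kinetochore kinesin that carries chromosomes to the spindle equator, had 17.3 and 11.4 CPM against 32.9 and 29.9 CPM. Cenpf, a large outer kinetochore protein, had 18.7 and 14.2 CPM against 28.0 and 24.4 CPM (0.67 ± 0.20), a smaller difference than for the other kinetochore members.

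Checkpoint and chromosomal passenger genes had a median of 1.25 over 6 members, from 1.06 to 1.63. Bub1, a checkpoint kinase of the kinetochore, had 6.29 and 3.85 CPM against 16.5 and 15 CPM, from 156 and 74 against 367 and 364 counts (log2 change 1.63 ± 0.30, edgeR adjusted p = 0.210, DESeq2 adjusted p = 0.00363). Aurkb, the kinase of the chromosomal passenger complex that corrects faulty attachments, had 8.07 and 5.0 CPM against 18.8 and 17.2 CPM (1.46 ± 0.29), and Birc5, the survivin subunit of that complex, had 12.9 and 9.32 CPM against 26.1 and 20.1 CPM (1.06 ± 0.25). Ttk, the kinase that starts the checkpoint, had the fewest counts in wild type 1 and both knockout libraries, 110 and 59 against 210 and 207. The checkpoint effectors Bub1b and Mad2l1, which bind the APC/C activator, had log2 fold changes of 1.25 ± 0.20 and 1.16 ± 0.21.

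The activator and the ubiquitin-conjugating enzyme of the APC/C were both higher. Ube2c, which primes ubiquitin chains on cyclin B and securin, had 21.9 and 16.5 CPM against 53.5 and 42.6 CPM (log2 change 1.32 ± 0.22, DESeq2 adjusted p = 0.000875). Cdc20, which brings substrates to the complex, had 15.4 and 11.0 CPM against 30.1 and 25.7 CPM (1.08 ± 0.23).

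Cytokinesis genes had a median of 1.06. Kif23 and Racgap1 form centralspindlin, which recruits the exchange factor Ect2 to the midzone. Kif23 had 13.6 and 11.7 CPM against 35.4 and 22.6 CPM, and its knockout libraries lay furthest apart of the 35 (0.65 on the log2 scale). Racgap1 had 22.8 and 16.3 CPM against 41.5 and 40.1 CPM, and Ect2 had 21.1 and 16.7 CPM against 42.1 and 37.0 CPM. Prc1, the bundler of midzone microtubules, and Kif20a, a midzone kinesin on chromosome 18, had log2 fold changes of 0.97 and 1.10. Anln, the furrow scaffold anillin, had 17.6 and 12.4 CPM against 27.2 and 26 CPM (0.82 ± 0.22). Iqgap3, a scaffold also used to mark isthmus stem cells, had 11.8 and 10.3 CPM against 19.8 and 16.7 CPM (0.72 ± 0.18).

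**Figure D3:**
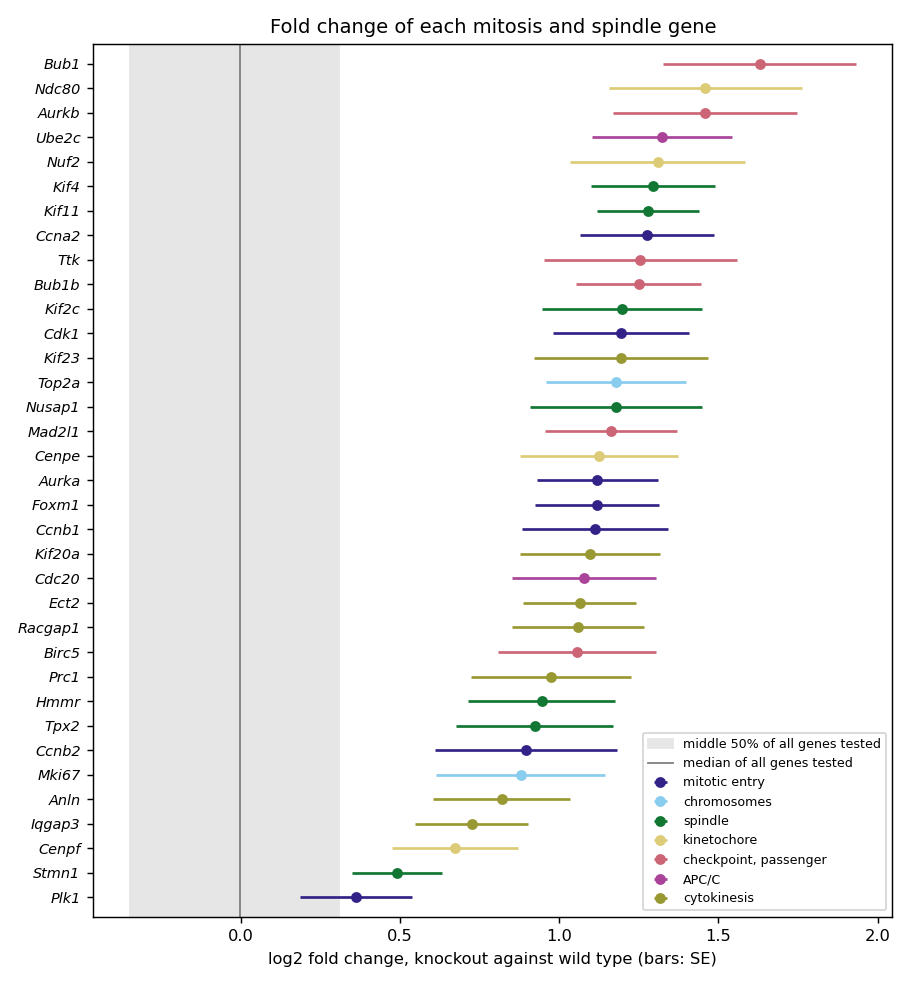
Log2 fold change, knockout against wild type, of each of the 35 genes with its standard error, coloured by role, with the median (line) and middle 50% (grey band, -0.35 to 0.31) of the 14067 genes tested. All 35 lie to the right of the band, from Plk1 at 0.36 to Bub1 at 1.63.

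Levels were compared between genes as CPM per kilobase of annotated exon, which is only approximate where a gene has many isoforms. Plk1 had the highest level in all 4 libraries (26 and 20.3 in wild type, 28.6 and 30.8 in knockout), and Stmn1 came next (18.8 and 17.1, then 23.7 and 26.9). The ranges of this pair did not overlap within either genotype. In wild type Ccnb2, Mki67, Ube2c and Cdc20 followed at means of 8.02, 7.44, 7.38 and 7.07, and their library values overlapped, so they could not be ordered. In knockout Ube2c came after Plk1 and Stmn1 at 20.6 and 16.4, above Ccnb2 at 15.5 and 14.3. Ndc80 was lowest in both wild-type libraries, at a mean of 0.577, and in knockout its values overlapped those of Iqgap3 and Cenpf, at means of 1.59, 1.60 and 1.70. The median over the 35 genes was 2.49 in wild type and 5.84 in knockout.

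The other genes of cell division did not all move like the 35. In lists drawn up by function, 15 of 31 other kinetochore and centromere genes were higher at an unadjusted edgeR p under 0.05 (none lower), with a median log2 fold change of 0.96. For other checkpoint and passenger genes the figure was 10 of 12 (median 1.02), for mitotic entry control 11 of 16 (1.08), for other spindle and centrosome genes 22 of 36 (0.99) and for DNA replication and G1/S genes 32 of 36 (1.10). Of APC/C subunits and regulators, 2 of 17 were higher, close to the 9.22% of all genes tested, and the median was 0.12. The remaining lists had medians close to that of the APC/C list, with 3 of 14 other cytokinesis genes (median 0.16), 5 of 13 DREAM, MuvB and MYB-type regulators (0.14) and 8 of 19 condensin and cohesin genes (0.21). The condensin and cohesin list also held 1 gene that was lower at that p, the securin gene Pttg1 (-0.94). None of these genes passed edgeR's adjusted threshold. DESeq2 called 28 of 158 non-member mitosis genes as higher, against 4.06% of all genes tested, and 1 as lower.

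Named by the smallest p in each list, the condensin subunit Ncaph had the largest difference, at 7.50 and 5.57 CPM against 37.0 and 30.1 CPM (log2 change 2.36 ± 0.23, edgeR adjusted p = 0.178). Its fellow condensin subunits Smc2 and Ncapg had log2 fold changes of 1.09 and 1.45. Cyclin F (Ccnf), a substrate receptor of a ubiquitin ligase, had 6.78 and 4.64 CPM against 19.7 and 18.3 CPM. Cdc25b, a phosphatase that activates Cdk1, had 41.1 and 30.6 CPM against 111 and 85.8 CPM. Pbk, a mitotic kinase, had a log2 fold change of 1.37. Incenp, the scaffold of the passenger complex, had 15.6 and 14.3 CPM against 32.2 and 30.1 CPM, and the checkpoint genes Zwilch and Sgo2a had log2 fold changes of 1.61 and 1.33.

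In the APC/C list the 2 at an unadjusted edgeR p under 0.05 were Fbxo5 and Cdc27. Fbxo5, an inhibitor of the complex that is itself a cell cycle gene, had 4.56 and 3.02 CPM against 10.2 and 11.3 CPM (1.50 ± 0.30). Cdc27 and Anapc13, both core subunits, were at 0.49 and -0.49. The smallest p-values of the spindle list were those of Ckap2l, Kif22 and Cep55, at log2 fold changes of 1.38, 1.22 and 1.28. In the kinetochore list they were those of Spc24, Spc25 and Mis18a, at 1.12, 0.88 and 0.92, and in the cytokinesis list those of Shcbp1, Cdca3 and Cdca2, at 1.13, 1.10 and 1.13. Of the regulators, Tfdp1, Rbl1 and Lin54 were at 0.66, 0.77 and 0.51. The replication genes Rrm2, Mcm5 and Mcm3 were at 1.75, 1.64 and 1.37, with an edgeR adjusted p of 0.144 for Rrm2.

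**Figure D4:**
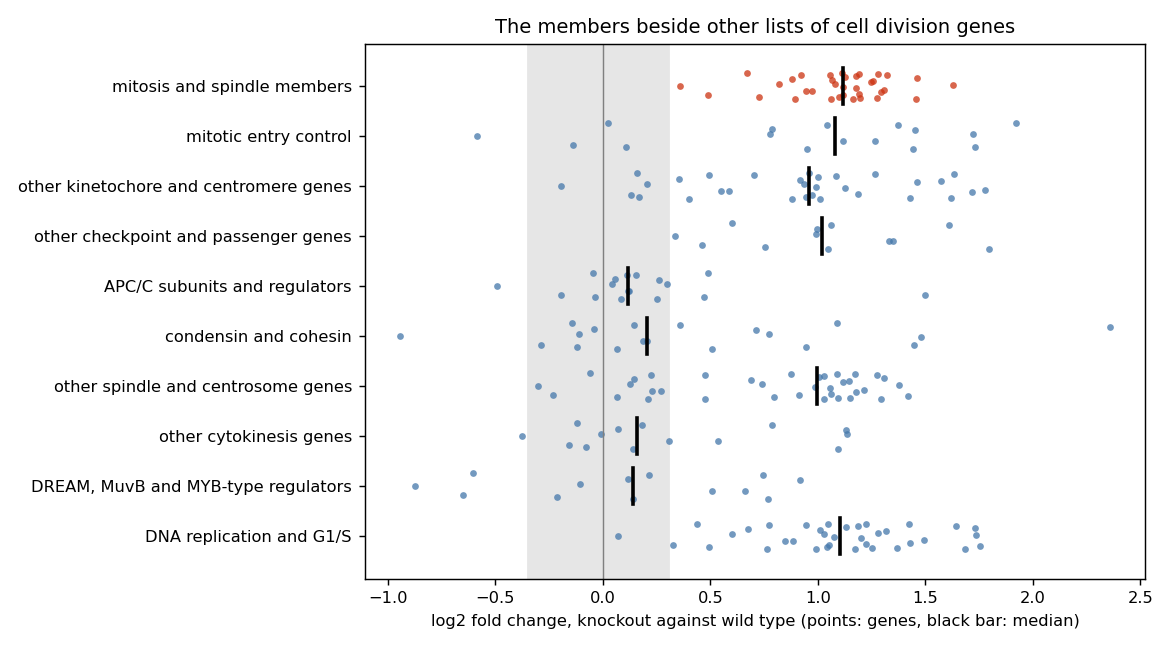
Log2 fold change of the 35 genes (red) and of the genes of 9 other cell division lists (blue), with each list's median as a black bar and the middle 50% of all genes tested in grey. The 35 genes and the replication list centre at 1.12 and 1.10, the APC/C list at 0.12.

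The libraries of a genotype were not alike in these genes. Wild type 1 exceeded wild type 2 in all 35, by a median of 0.46 on the log2 scale (0.14 to 0.72), while 60.4% of all genes tested were higher in wild type 1. Knockout 1 exceeded knockout 2 in 26 of 35, by a median of 0.13. Against the wild-type mean the median of the 35 was 1.22 in knockout 1 and 1.09 in knockout 2. Leaving out wild type 2 lowered the number at an unadjusted edgeR p under 0.05 from 34 to 22 and the median log2 fold change to 0.90, while the share of all genes tested fell from 9.22% to 3.94%. With wild type 1, knockout 1 or knockout 2 left out, the numbers were 32, 29 and 33, against 4.17%, 5.57% and 12.2% of all genes tested. Without knockout 2, 4 of the 35 passed edgeR's adjusted threshold as higher (Ccna2, Kif11, Kif23 and Ube2c), against 2.39% of all genes tested.

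Markers of other cells differed between libraries as well. The 10 stromal and endothelial markers summed to 223 and 1576 CPM against 266 and 1377 CPM, so the libraries with number 2 held more stromal RNA. Between the libraries low in stroma, knockout 1 exceeded wild type 1 by a median of 1.0 (0.14 to 1.39) over the 35 genes. Between those high in stroma, knockout 2 exceeded wild type 2 by a median of 1.30 (0.60 to 1.96). Each pair is 1 library against 1, and its direction follows from the lack of overlap between the groups. The part of stroma in these differences was not tested. T and NK cell markers summed to 1.39 to 4.17 CPM and B and plasma cell markers to 12.3 to 60.8 CPM, with the highest sums in wild type 2 for both. Of these lists Cd3e and Ms4a1 stood at or below 0.313 CPM in every library. The B and plasma sum came mostly from Jchain, at 3.47 and 49.4 CPM against 6.95 and 20.2 CPM, and from Bcl6. Bcl6 had 8.59 and 9.43 CPM against 11.5 and 13.6 CPM, higher without overlap. Leukocyte and myeloid markers summed to 14 and 50.7 CPM against 15.3 and 26.3 CPM, red cell precursor markers to 28.5 and 62.9 CPM against 30.5 and 42.1 CPM, and male germ cell markers to at most 0.686 CPM.

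The sum of 5 epithelial markers was highest in knockout 1. Epcam, Cdh1, Krt8, Krt18 and Krt19 summed to 8419 and 5803 CPM against 14879 and 7022 CPM, and 5 of 5 were higher in the fit, but only Epcam without overlap, and the sum in knockout 2 lay below that in wild type 1. Taken relative to that sum, a scale chosen after seeing the data, the median of the 35 exceeded that of wild type by 0.13 in knockout 1 and by 1.08 in knockout 2 (log2), and 21 of 35 were higher without overlap, against 5.86% of all genes tested on that scale. Against the epithelial markers of its own library, the sum of the 35 was 0.0810 and 0.0864 against 0.0843 and 0.160, so knockout 1 did not stand apart on that scale. Neck and metaplasia (SPEM) markers summed to 1390 and 1034 CPM against 12487 and 8157 CPM. Of these, 5 of 6 were higher without overlap, against 26.3% of all genes tested. The marker that was lower was Muc6 itself, at 345 and 313 CPM against 0 and 0.413 CPM. Most of the sum was Tff2, at 1022 and 679 CPM against 11709 and 7314 CPM. Pit cell markers summed to 108981 and 72265 CPM against 61763 and 48512 CPM, and chief cell markers to 64362 and 147840 CPM against 2321 and 81395 CPM, where knockout 1 stood lowest. The chief sum was mostly Pgc (63619 and 145529 CPM against 2238 and 79868 CPM). Of the 5 chief markers tested, 2 were higher and 3 lower in the fit. Squamous markers, of cells that are not part of the corpus, summed to 0.928 and 0.417 CPM against 159 and 13.1 CPM. Trp63 and Sprr3 were at 0 in all libraries. The 4 squamous markers tested were Krt13, Krt14, Krt4 and Krt6a. Krt14, Krt4 and Krt6a had 0 counts in both wild-type libraries and passed the filter through the knockout libraries alone. Their lack of overlap therefore followed from the filter and is not a result. Krt13 had 0.847 and 0.260 CPM against 117 and 5.62 CPM. Antral and intestinal markers summed to 66.0 and 40.0 CPM against 448 and 82.2 CPM, mostly Vil1 (64.8 and 39.5 CPM against 377 and 76.6 CPM). Pdx1 had 7 and 1 counts against 1316 and 61, and Gast 1 and 0 counts against 218 and 0. The part of these cell types in the values of the 35 genes was not tested.

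**Figure D5:**
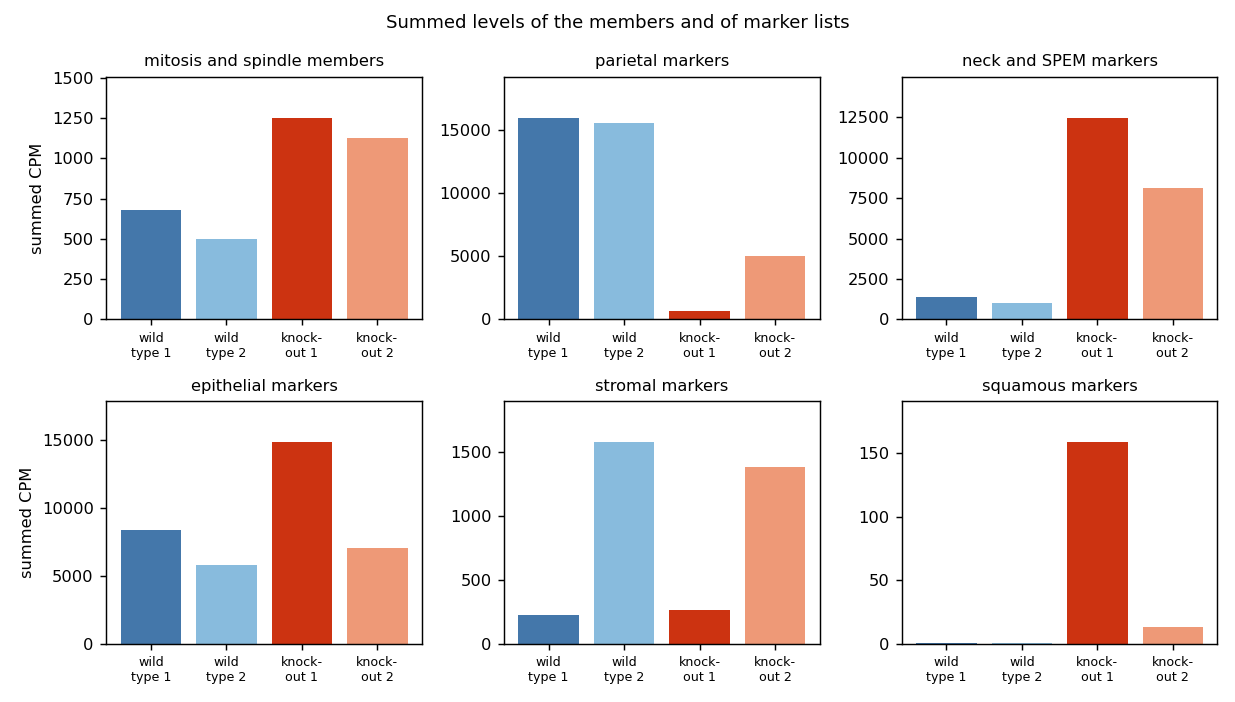
Summed CPM in each library (bars, axes from 0) of the 35 mitosis and spindle genes and of marker lists. The 35 genes and the neck and SPEM markers were higher in both knockout libraries, parietal markers lower in both, and stromal markers were high in wild type 2 and knockout 2.

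The exons of 8 of the 35 overlap exons of another gene in the table, and it is not stated whether the counting used strand. The partners were on the opposite strand for all but Foxm1, whose partners had 0 counts. For Kif20a the partner Cdc23 had 27.1 and 24.4 CPM against 24.3 and 25.9 CPM, and for Ccna2 the partner Exosc9 had 15.5 and 14.5 CPM against 18.8 and 17.0 CPM. Kif4 shares 683 bases with Pdzd11, at 24.2 and 21.5 CPM against 23.8 and 22.0 CPM, above Kif4 in every library. Cdc20 shares 53 bases with Elovl1, at 122 and 109 CPM against 125 and 90.2 CPM. The partners Oip5 (Nusap1) and Rccd1 (Prc1) stood at or below 5.53 CPM and Tnnc2 (Ube2c) at or below 0.0403 CPM. How far shared reads entered these values was not tested. Processed copies can also share reads: Ccnb2-ps had 18 and 15 counts against 8 and 14, next to 379 and 178 against 531 and 532 for Ccnb2.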

How the data were processed

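RNA sequencing of corpus mucosa gave 4 libraries, made with a stranded mRNA kit per the labels' protocols. The genome build was mm10 per the submitters' processing notes; aligner, counter and annotation: not given in the sources used here. The deposited table holds the authors' estimated counts per gene, without normalization as far as the values show (35.0% of nonzero values not whole). They were rounded to whole numbers. Promoter windows came from RefSeq (GRCm38.p6). Symbols came from GENCODE M21 (34652 of 34866 identifiers matched without version).

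Knockout was compared with wild type by edgeR 4.0.16 in R 4.3.3 (quasi-likelihood, robust dispersion, TMM factors, filterByExpr with 10 counts, 14067 genes, Benjamini-Hochberg at 0.05). A standard error is the log2 fold change over the root of F. DESeq2 1.42.0, limma 3.58.1 (voom), other scalings, filters and left-out libraries were alternatives. Scripts were tested on simulated data. A single-gene exact permutation test cannot go below p = 0.33. The 35 genes and all lists were chosen with earlier results of these data known. Named genes were Muc6, the 35 and the 3 of smallest p per list with a mean of at least 1 CPM; the stated exceptions came after values were seen.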

Additional observations from a re-analysis of the deposited data

How the results depend on the processing

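All 35 fold changes stayed positive under each of the 15 refits tried (525 values, 0 reversed). All 35 genes stayed higher without overlap under the 4 other scalings, but no share of all genes is given for that count. With total counts and no factors, 24.7% of all genes tested were higher at an unadjusted edgeR p under 0.05, against 9.22% as reported. With 1 library left out, the direction and the lack of overlap largely follow from the full set, where both knockout values exceeded both wild-type values. Those refits therefore cannot test the direction. The median log2 fold change was 1.42 with total counts and no factors, a scaling that put the median of all genes at 0.29. The number past the adjusted threshold was 23 with DESeq2 (lowest adjusted p 3.0e-05) and 0 to 4 with 1 library left out (4 without knockout 2, where 2.39% of all genes passed as higher), and 0 under the other refits. With 1 library left out, the number at an unadjusted p under 0.05 was 22 to 33 (3.94% to 12.2% of all genes tested were higher in those fits), the median 0.90 to 1.36 and the ratio of summed CPM 1.75 to 2.38; such fits assume that the lone library varies like the others. Relative to the summed epithelial markers, chosen after seeing the data, the median was 0.58, 21 genes did not overlap (5.86% of all genes tested) and the ratio of sums was 1.46; the cause was not tested. Using the bias-adjusted deviance in edgeR, also added later, changed no count. The sample numbers are only shared labels: same-numbered libraries deviated together (r = 0.52 across genes, which are not independent). The replicate block gave a median of 1.13 with 0 past the adjusted threshold. In that fit 34 were at an unadjusted p under 0.05, where 12.9% of all genes tested were higher. The fewest counts of any of the 35 in a library were 58.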

Other observations

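Some genes of the same machinery did not follow the 35, and these were picked after their values were seen. Pttg1, the securin that Cdc20 and the APC/C destroy at anaphase, was lower in knockout, at 19.7 and 19.3 CPM against 8.70 and 11.6 CPM (log2 change -0.94 ± 0.20, edgeR adjusted p = 0.226, DESeq2 adjusted p = 0.0380), while Espl1, the separase that securin inhibits, was higher (log2 fold change 0.95). Wee1, the kinase that holds Cdk1 inactive, was at -0.59 ± 0.22 and the phosphatase Cdc25a at -0.14, against 1.45 for Cdc25b.

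Condensin and cohesin genes were compared by complex, a split also chosen after their values were seen. The 5 genes of condensin I (Smc2, Smc4, Ncapd2, Ncapg and Ncaph, of which the first 2 are shared with condensin II) had log2 fold changes of 0.71 to 2.36. The condensin II genes Ncapd3, Ncapg2 and Ncaph2 were at 0.19, 0.51 and 0.14. The cohesin core genes Smc1a, Smc3 and Rad21 were at 0.06, 0.36 and -0.04, and Cdca5, the cohesin protector sororin, at 1.48. The difference between the complexes was not tested.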
